A study of Mus musculus with 6 samples.

Results

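Snai1, Snai2, Twist1, Twist2, Zeb1, Zeb2, Prrx1, Vim, Fn1 and Tnc, 10 genes of the epithelial-mesenchymal transition, were followed in mouse penile squamous cell carcinoma. They were chosen by name, for their known roles in the transition, from the 24063 gene symbols of the count tables. Earlier results of these data were known when they were chosen. The study sequenced RNA from penile tumors of 3 SA mice (PB-Cre+ Smad4L/L ApcL/L) and, as 3 further samples, from the normal penile epithelium of wild type (WT) C57BL/6 mice, with both groups at 5 months of age, to ask which genes differ between cancerous and normal penis. SA tumors arose without carcinogen. Cre was driven by an androgen-responsive probasin promoter that is active in epithelial cells, so the Smad4 and Apc alleles of the tumor stroma and immune cells were not its target. Each library came from a piece of whole tissue, and fewer cells of a type cannot be told apart from less RNA per cell in any value below.

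The epithelial-mesenchymal transition is a program in which epithelial cells lose polarity and cell junctions and gain the shape, motility and matrix production of mesenchymal cells. It is driven by transcription factors of the Snail, Twist and Zeb families, several of which bind E-boxes in the promoter of Cdh1, the gene of the junction protein E-cadherin, and it is induced by TGF-beta and Wnt signals among others. Fibroblasts and other stromal cells carry most of these genes in normal tissue, and carcinomas often run the program only in part.

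The libraries held 23828283 to 110509147 counts, with SA tumor 3 the deepest, and a level of 3 counts corresponded to between 0.0244 and 0.137 CPM, with CPM the normalized count scaled to a total of 1000000 per library, which covers counting error only. Smad4 was at 36.6, 36.1 and 46.1 CPM in the SA tumors and at 61.2, 69.7 and 72.5 CPM in the WT penises, with a log2 fold change of -0.77 ± 0.13 (SE, n = 3 per group, edgeR adjusted p = 0.00114). Apc was higher in the tumors, with a log2 fold change of 1.43 ± 0.17 (SE, edgeR adjusted p = 0.000185). Since the counts of Smad4 and Apc cover the whole transcript, neither value checks the deletion. The squamous epithelium markers summed to 14410 to 16520 CPM in the tumors and 28360 to 31150 CPM in the WT penises, so both tissues carried the labelled cell type. The libraries labelled WT penile epithelium also held stromal RNA, with 6387 to 6702 CPM over 10 fibroblast markers and 1546 to 2069 CPM over 7 smooth muscle and pericyte markers.

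Of the 10 genes, 4 rose in SA tumors at an adjusted p under 0.01 (Tnc, Fn1, Snai1 and Twist2) and 0 fell, while among the 16336 genes tested 20.1% were called higher and 17.5% lower by the same rule. In the lower direction 1 gene, Vim, had an unadjusted edgeR p under 0.05, and DESeq2 called 1, again Vim, while limma-voom called 0. In the higher direction DESeq2 called 5, with Prrx1 added, and limma-voom called 4. With the study's second threshold added, a log2 fold change of 2 or more in either direction, 3 genes were called higher (Tnc, Fn1 and Snai1), against 9.41% of all genes. All 10 passed the filter on low counts. The values of the tumors lay above those of all WT penises for 5 genes (32.7% of all genes tested) and below them for 2 genes (30.7% of all genes tested), and the groups overlapped for the other 3. The median log2 fold change of the 10 genes was 0.50, and that of all genes tested was 0.03.

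**Figure D1:**
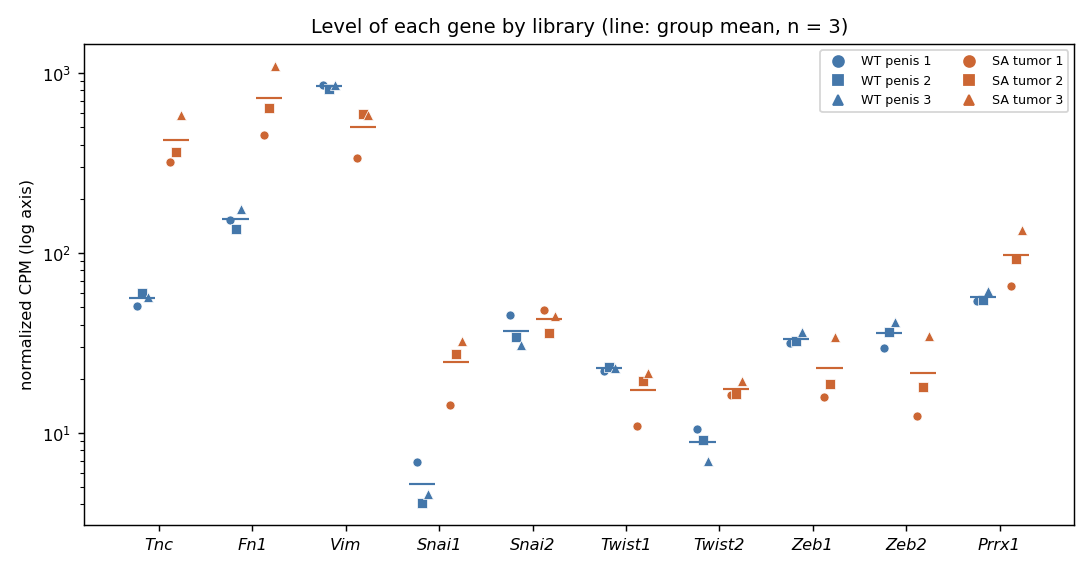
Normalized CPM on a log axis for each of the 10 genes, with 1 point per library (WT penises blue, SA tumors orange, marker shape for the replicate) and a line at each group mean of 3. Tnc, Fn1 and Snai1 stand apart between the groups, with mean levels of 423, 729 and 24.8 CPM in tumors against 56.0, 154 and 5.17 CPM in WT penises, whereas Vim is lower in every tumor.

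Snail family proteins are zinc finger repressors that bind E-boxes. Snai1 (NM_011427, GRCm38 chr2:167538195-167542814, plus strand) was at 14.3, 27.5 and 32.5 CPM in the SA tumors and at 6.87, 4.07 and 4.56 CPM in the WT penises. All tumors were above all WT penises, and tumor 1 was the lowest of the tumors. The log2 fold change was 2.27 ± 0.34 (SE, n = 3 per group), a fold of 4.83, with an edgeR adjusted p of 0.000843. Snai2, which also takes part in normal keratinocyte migration and melanocyte development, was at 48.1, 36.0 and 44.6 CPM in the SA tumors and at 45.3, 34.3 and 30.6 CPM in the WT penises. These ranges overlapped, and the log2 fold change of 0.22 ± 0.17 (SE) did not pass the test (edgeR adjusted p = 0.296). The paralogs therefore stood in different positions: Snai1 rose from a low level, whereas Snai2 had the higher level in WT penises and did not pass.

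Twist proteins are basic helix-loop-helix factors of mesoderm and dermal fibroblasts. Twist2 (NM_007855, GRCm38 chr1:91801461-91848028, plus strand) was at 16.3, 16.5 and 19.5 CPM in the tumors and at 10.5, 9.11 and 6.97 CPM in the WT penises. The groups did not overlap, and Twist2 rose by 1.97-fold, a log2 fold change of 0.97 ± 0.18 (SE, edgeR adjusted p = 0.0019). Without WT replicate 2 the adjusted p was 0.0106 (range over 15 alternatives 4.58e-06 to 0.0106, where this and later ranges leave out the test against a log2 fold change of 2). Twist1 lay the other way, at 10.9, 19.5 and 21.6 CPM in the tumors and 22.0, 23.3 and 23.1 CPM in the WT penises. Every tumor was below every WT penis, but the tumors were spread 5.67 CPM (SD) around their mean of 17.3 CPM against 0.682 CPM in WT, and the log2 fold change of -0.39 ± 0.23 (SE) did not pass (edgeR adjusted p = 0.185).

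Zeb proteins pair zinc finger clusters with a homeodomain and repress Cdh1 and other epithelial genes. Zeb1 was at 15.8, 18.7 and 34.1 CPM in the tumors and at 31.6, 32.4 and 36.2 CPM in the WT penises. Zeb2 was at 12.5, 17.9 and 34.6 CPM in the tumors and at 29.7, 36.5 and 41.3 CPM in the WT penises. For both genes tumors 1 and 2 were below all WT penises and tumor 3 was within the WT range. The log2 fold change was -0.53 ± 0.27 (SE, edgeR adjusted p = 0.131) for Zeb1 and -0.71 ± 0.36 (SE, edgeR adjusted p = 0.133) for Zeb2. These calls turned on SA tumor 3: without it, Zeb1 was at -0.95 (adjusted p = 0.000743, range over 15 alternatives 0.000743 to 0.467) and Zeb2 at -1.23 (adjusted p = 0.00155, range over 16 alternatives 0.00155 to 0.336).

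Prrx1 is a paired-type homeobox factor of limb and craniofacial mesenchyme and of fibroblasts. It was at 65.5, 92.4 and 133 CPM in the tumors and at 54.3, 54.9 and 61.1 CPM in the WT penises. All tumors were above all WT penises, but they differed among themselves by more than the WT penises did (SD 34.2 against 3.77 CPM). The log2 fold change of 0.78 ± 0.23 (SE) had an edgeR adjusted p of 0.0232 and missed the threshold. It passed in 3 of 17 alternatives: without SA tumor 1 (0.99, adjusted p = 0.0011), by DESeq2 (0.76, adjusted p = 0.0025) and with library totals only as the scaling (1.07, adjusted p = 0.00605), and the adjusted p ranged from 0.0011 to 0.0879.

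Vim encodes vimentin, the intermediate filament of mesenchymal cells, and was the gene with the highest count among the filament and matrix members in WT penises. It was at 336, 590 and 583 CPM in the tumors and at 863, 816 and 857 CPM in the WT penises. Every tumor was below every WT penis. The log2 fold change was -0.75 ± 0.20 (SE), a level 1.68 times as high in WT penises, with an edgeR adjusted p of 0.0143, which missed the threshold of 0.01. It passed in 2 of 15 alternatives, without SA tumor 1 (-0.53, adjusted p = 0.00535) and by DESeq2 (-0.76, adjusted p = 0.000742), and the adjusted p ranged from 0.000742 to 0.0823. The direction of Vim was thus opposite to that of the matrix genes Fn1 and Tnc.

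Fn1 encodes fibronectin, a glycoprotein that links cells to the matrix through integrins (NM_010233, GRCm38 chr1:71585524-71653175, minus strand, 46 exons). It was at 455, 636 and 1096 CPM in the tumors and at 152, 136 and 175 CPM in the WT penises. The groups did not overlap, with means of 729 ± 330.4 and 154 ± 19.4 CPM (SD, n = 3). Fn1 rose by 4.73-fold, a log2 fold change of 2.24 ± 0.31 (SE, edgeR adjusted p = 0.0008). Without SA tumor 3 the log2 fold change was 1.82, under the size threshold of 2.

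Tnc encodes tenascin C, a hexameric matrix protein that is sparse in most adult tissue and made around healing wounds and in tumor stroma (NM_011607, GRCm38 chr4:63959785-64047015, minus strand, 26 exons). It was at 320.1, 365 and 584 CPM in the tumors and at 51.0, 60.2 and 56.7 CPM in the WT penises. The lowest tumor was well above the highest WT penis. Tnc had the largest fold change of the 10 genes, 7.56-fold or 2.92 ± 0.23 on the log2 scale (SE, edgeR adjusted p = 2.51e-05), and it was the only one of the 10 whose change passed a test against a log2 fold change of 2.

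The tumors differed among themselves in one order for most of these genes. SA tumor 1 was the lowest tumor for 9 of the 10 genes (all but Snai2), compared with 32.7% of all genes tested. SA tumor 3 was the highest tumor for 8 of the 10 (all but Snai2 and Vim), compared with 35.8% of all genes tested. The tumors' fibroblast markers followed the same order, with 1529, 4233 and 5369 CPM in tumors 1, 2 and 3. Markers of smooth muscle and pericytes (53.4, 110 and 148 CPM), endothelium (166, 203 and 283 CPM) and Schwann cells (36.4, 45.2 and 53.5 CPM) did too. So did the 6 leukocyte markers other than S100a8 and S100a9 (75.8, 150.2 and 224.5 CPM). Squamous epithelium markers (15070, 14410 and 16520 CPM) did not, nor did the whole leukocyte list or the melanocyte and skeletal muscle markers.

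Levels per transcript length were taken from the deposited TPM values, which place the genes of a library on one scale. In WT penises Vim was at 633 ± 37.4 TPM (SD, n = 3), followed without overlap by Fn1 at 25.2 ± 4.10 TPM, whose range overlapped that of Snai2 at 24.9 ± 3.53 TPM. Twist1, Prrx1, Tnc, Twist2, Zeb1, Zeb2 and Snai1 followed in this order, with Snai1 last at 4.42 ± 1.01 TPM. In SA tumors the order was Vim at 486 ± 138 TPM, Fn1 at 154 ± 73.7 TPM, Tnc at 106 ± 38.1 TPM, then Snai2, Prrx1, Snai1, Twist2, Twist1, Zeb1 and Zeb2. By mean, Tnc was in place 6 in WT penises and in place 3 in tumors, and Snai1 in place 10 and in place 6. Neighbors whose ranges overlapped are not told apart. In tumors these were Fn1 and Tnc, each pair of neighbors from Snai2 to Twist1, and Zeb1 and Zeb2. In WT penises they were Fn1 and Snai2, Twist1 and Prrx1, each pair of neighbors from Tnc to Zeb1, and Zeb2 and Snai1. The ends of these runs did not overlap. Snai2 (30.59 to 42.8 TPM) lay above Twist1 (11.95 to 24.15 TPM) in tumors, and Tnc (9.183 to 11.84 TPM) above Zeb1 (6.955 to 9 TPM) in WT penises.

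Fibronectin mRNA is spliced at the EDB and EDA exons and the V segment, and the deposited tables hold RefSeq rows of Fn1 that differ by exactly one of them. The segments were looked at after the values of Fn1 had been seen. The difference between the counts of 2 such rows gives the counts that the row with the segment holds beyond the row without it. These are called the counts of the segment below. Whether such reads lie wholly in the segment or also span its ends is not known, as the counting mode is not given. The EDB exon is exon 25 of 46 (GRCm38 chr1:71613763-71614035, 273 bases) and the EDA exon is exon 33 (chr1:71603660-71603929, 270 bases), both on the minus strand. They are shown because their counts carry the splicing comparison, with the exon in capitals and the ends of the neighboring exons in lower case.

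Fn1 EDB exon: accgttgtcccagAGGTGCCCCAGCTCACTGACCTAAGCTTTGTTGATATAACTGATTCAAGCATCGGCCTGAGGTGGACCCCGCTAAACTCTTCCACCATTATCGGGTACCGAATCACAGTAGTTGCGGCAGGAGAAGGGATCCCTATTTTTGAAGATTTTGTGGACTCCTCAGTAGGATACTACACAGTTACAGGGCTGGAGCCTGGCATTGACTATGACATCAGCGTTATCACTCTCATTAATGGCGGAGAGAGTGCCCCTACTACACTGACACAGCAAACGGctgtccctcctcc

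Fn1 EDA exon: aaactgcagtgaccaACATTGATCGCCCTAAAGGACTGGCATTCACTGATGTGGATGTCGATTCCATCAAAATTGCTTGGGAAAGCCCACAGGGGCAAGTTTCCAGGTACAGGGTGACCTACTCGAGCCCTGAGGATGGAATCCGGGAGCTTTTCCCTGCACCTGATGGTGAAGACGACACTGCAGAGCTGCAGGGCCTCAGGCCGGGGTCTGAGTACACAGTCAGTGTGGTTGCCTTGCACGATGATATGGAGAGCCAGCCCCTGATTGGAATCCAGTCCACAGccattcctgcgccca

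In SA tumors 1, 2 and 3 the EDB exon held 129, 169 and 1331 counts, compared with 5, 6 and 6 in the WT penises. As a share of all Fn1 counts this was 0.973% ± 0.0877 in tumors and 0.151% ± 0.00501 in WT penises (SD, n = 3). The shares did not overlap and differed by 6.45 times, and the exact two-sided permutation test gave p = 0.10, the smallest that 3 against 3 allows. EDB counts, tested with edgeR over all genes in place of the Fn1 row, had a log2 fold change of 4.93 ± 0.44 (SE, adjusted p = 4.18e-05), more than the 2.24 of the whole gene. With 5 to 6 counts in each WT penis, the exon passed the filter on low counts through the tumors alone. It was also chosen after Fn1 was seen to rise, so this adjusted p is not separate support and the fold change is a description.

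The EDA exon held 149, 205 and 1542 counts in the tumors, compared with 17, 32 and 23 in the WT penises. Its share was 1.14% ± 0.0749 in tumors and 0.630% ± 0.142 in WT penises (SD, n = 3), a ratio of 1.81 without overlap (exact two-sided permutation p = 0.10). In contrast, the V segment, part of exon 40, was at 7.96% ± 0.717 in tumors and 8.76% ± 0.592 in WT penises, with overlapping shares (ratio 0.908, exact two-sided permutation p = 0.20). The log2 fold change was 3.11 ± 0.36 for the EDA counts (SE, edgeR adjusted p = 0.000183). For the V counts it was 2.10 ± 0.28 (SE, edgeR adjusted p = 0.000522). Both are part of the Fn1 counts, which had been seen to rise, so these adjusted p-values are not separate support and do not bear on splicing. The EDB and EDA shares thus lay higher in every tumor and that of the V segment did not. The counting mode of HTSeq is not given in the sources used here, and the part of fragment length in these shares was not tested.

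**Figure D2:**
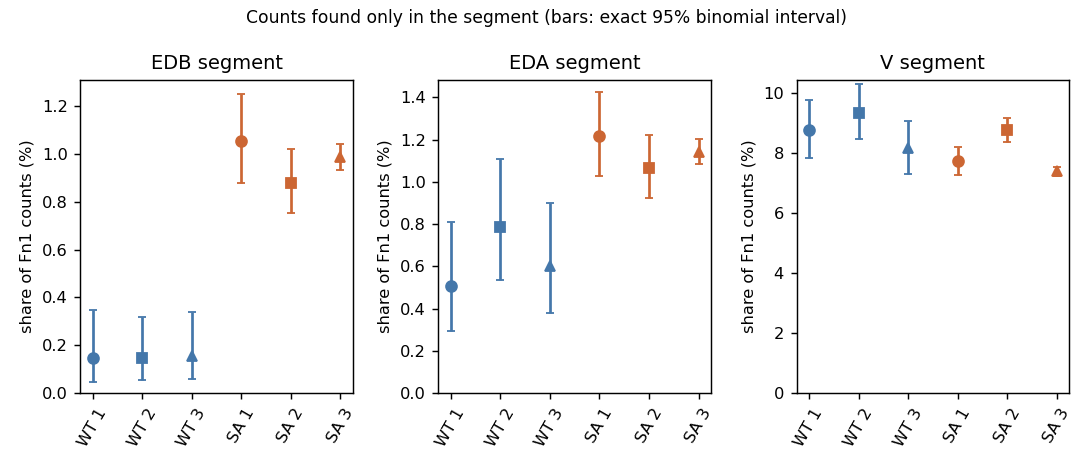
Share of Fn1 counts (percent, axes from 0) of the EDB exon, EDA exon and V segment, in 3 WT penises (blue) and 3 SA tumors (orange). Each is the difference between a row with the segment and a row without it. Bars are exact 95% binomial intervals for counting error. EDB shares are 0.147% to 0.157% in WT penises and 0.879% to 1.05% in tumors, and the V segment overlaps between the groups.

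Some markers of other cell types moved between the groups, and their part in the results above was not tested. The counts below stand against 20.1% called higher and 17.5% called lower among all genes. Those of the endothelial and leukocyte lists lay near these shares. Over 10 fibroblast markers, 1 was called higher (Thy1) and 1 lower (Dcn), calls that were lost under 4 and 3 of 15 alternatives, with 1529 to 5369 CPM in tumors and 6387 to 6702 CPM in WT penises. Of 7 smooth muscle and pericyte markers 6 fell, from 1546 to 2069 CPM in WT penises to 53.4 to 148 CPM in tumors. Of 7 endothelial markers 2 fell (166 to 283 CPM in tumors, 314 to 383 CPM in WT penises), and of 5 Schwann cell markers 4 fell. The calls of the smooth muscle marker Myh11 and the endothelial marker Pecam1 were each lost under 5 of 15 alternatives. That of the Schwann cell marker S100b was lost under 1 of 14. Of 8 leukocyte markers 2 rose, S100a8 and S100a9, with the list at 1535 to 2626 CPM in tumors and 152 to 242 CPM in WT penises. These sums were mostly S100a8 and S100a9: the other 6 leukocyte markers summed to 75.8, 150.2 and 224.5 CPM in tumors 1, 2 and 3 and to 97.4 to 126 CPM in WT penises, with the groups overlapping. No marker of these lists was at 0 in every library. Melanocyte markers were at 10.6 to 15.5 CPM in tumors and 10.8 to 12.9 CPM in WT penises, and 0 of the 2 tested markers were called by edgeR or had an unadjusted p under 0.05.

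Each gene was also set against the geometric mean of the 10 fibroblast markers of the same library, as a description. The tumors lay above all WT penises for 5 genes, by 3.54 for Tnc, 2.89 for Snai1, 2.82 for Fn1, 1.66 for Twist2 and 1.39 for Prrx1 (difference of mean log2 ratios). For Vim the difference was -0.12, for Zeb1 0.05, for Zeb2 -0.17, for Twist1 0.22 and for Snai2 0.91, all with overlapping groups. Zeb1, Zeb2 and Snai2 overlapped in plain CPM too, so among the genes with a lower tumor mean the groups went from separate to overlapping for Vim and Twist1. The fibroblast mean itself varied among the tumors, at 6.04, 7.47 and 7.86 log2 CPM in tumors 1, 2 and 3 against 7.74 to 7.86 in WT penises, and its markers moved in both directions. Against 7 endothelial markers instead, the tumors were all higher for 6 genes, the former 5 and Snai2.

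**Figure D3:**
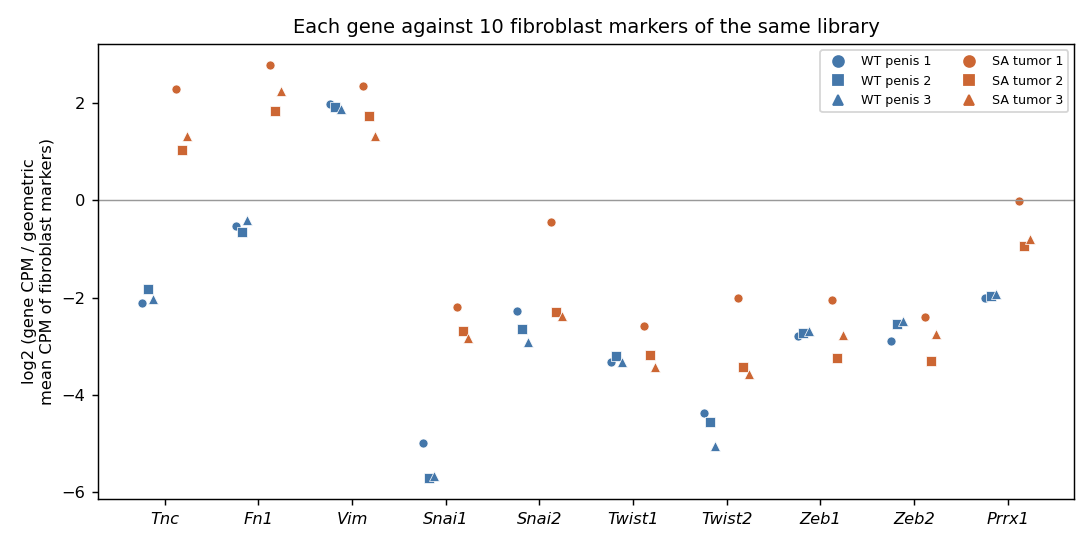
Log2 ratio of each gene's CPM to the geometric mean CPM of 10 fibroblast markers, by library (WT penises blue, SA tumors orange). Tnc, Fn1, Snai1, Twist2 and Prrx1 are higher in all 3 tumors, and the difference of means for Vim is -0.12.

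Further genes of the program were taken from lists set by known role, 71 genes of which 70 were tested. Earlier results of these data were known when the lists were set. The counts of each list stand against 20.1% called higher and 17.5% called lower among all genes. Of 10 other transcription factors tied to the transition, 4 rose and 2 fell, the latter near the share of all genes. Hmga2, an architectural factor that acts on Snai1 and Twist1, rose from 1.13 to 42.9 CPM (log2 fold change 5.25 ± 0.27, SE, edgeR adjusted p = 3.32e-06). Snai3, a Snail paralog, was at 6.99 to 8.01 CPM in tumors and at 0.181, 0.334 and 0 CPM in WT penises. It was called higher (edgeR adjusted p = 7.71e-05) and is among the 4 that rose. With so few counts in WT penises, Snai3 passed the filter on low counts through the tumors alone, so its call is a description. Foxc1 fell by 1.57 on the log2 scale and Klf8 by 1.15, and the call of Klf8 was lost under 6 of 15 alternatives (library totals only, and without SA replicate 1 or 2 or any WT replicate; adjusted p up to 0.0206). The median of the list was 0.42.

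Of 11 regulators of the epithelial state, 1 rose (20.1% of all genes) and 6 fell (17.5% of all genes), with a median of -0.52. Elf3 rose (3.65 ± 0.23 on the log2 scale, SE, edgeR adjusted p = 7.95e-06), whereas Grhl1, Esrp1, the epithelial splicing factor, Ovol1 and Ehf fell (-0.99, -0.79, -0.86 and -1.03 on the log2 scale). Of 15 adhesion and keratin genes, 5 rose (20.1% of all genes) and 6 fell (17.5% of all genes), with a median of -0.49. The simple-epithelium keratins Krt18 and Krt8 rose, by 8.08 and 7.14 on the log2 scale, and the junction genes Ocln, Dsp and Jup and the basal keratin Krt5 fell (-1.89, -1.23, -1.06 and -1.21 on the log2 scale). Adhesion and junction genes went both ways: Cldn7 (4.14) and Epcam (2.35) rose, as did the keratin Krt19 (4.17), whereas Cldn1 (-1.03) and Cldn4 (-0.90) fell. Cdh1, the classic target of Snail and Zeb factors, was at 433 ± 42.6 CPM in tumors and 420.1 ± 15.9 CPM in WT penises (SD, n = 3), a log2 fold change of 0.04 ± 0.11 (SE, edgeR adjusted p = 0.748).

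Of 14 other mesenchymal readout genes, 4 rose and 2 fell, with a median of 0.78, and these shares were near the 20.1% and 17.5% of all genes. Inhba, a subunit of activin, rose by 3.28 on the log2 scale, Cdh11 by 2.23, the proteoglycan gene Vcan by 1.81 and Cdh2, which encodes N-cadherin, by 1.77. Postn and Tgfbi, both matrix genes, fell by 1.99 and 0.99. The call of Cdh2 was lost without SA replicate 2, WT replicate 1 or WT replicate 2 (adjusted p up to 0.0108), and that of Tgfbi without SA replicate 2 or with library totals only (up to 0.0119). Of 12 genes of inducing signals, their receptors and Smad proteins, Wnt5a (2.41), Smad7 (1.25) and Tgfb2 (1.03) rose and Smad4, the deleted gene, fell. These were 3 higher and 1 lower, against 20.1% and 17.5% of all genes. Smad7 encodes an inhibitory Smad, so its rise is not that of an inducing signal. The call of Smad4 was lost with library totals only (adjusted p = 0.0152, the highest of 15 alternatives, which began at 1.2e-06). Of 8 integrin and syndecan receptors of fibronectin and tenascin C, 3 fell (17.5% of all genes), Itga8, Itgb6 and Sdc4 (-3.59, -1.70 and -1.35), and 0 rose by edgeR, DESeq2 or limma-voom, with 0 higher at an unadjusted edgeR p under 0.05. The main fibronectin receptor subunits Itga5 and Itgb1 were at 0.30 and 0.24, not called.

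**Figure D4:**
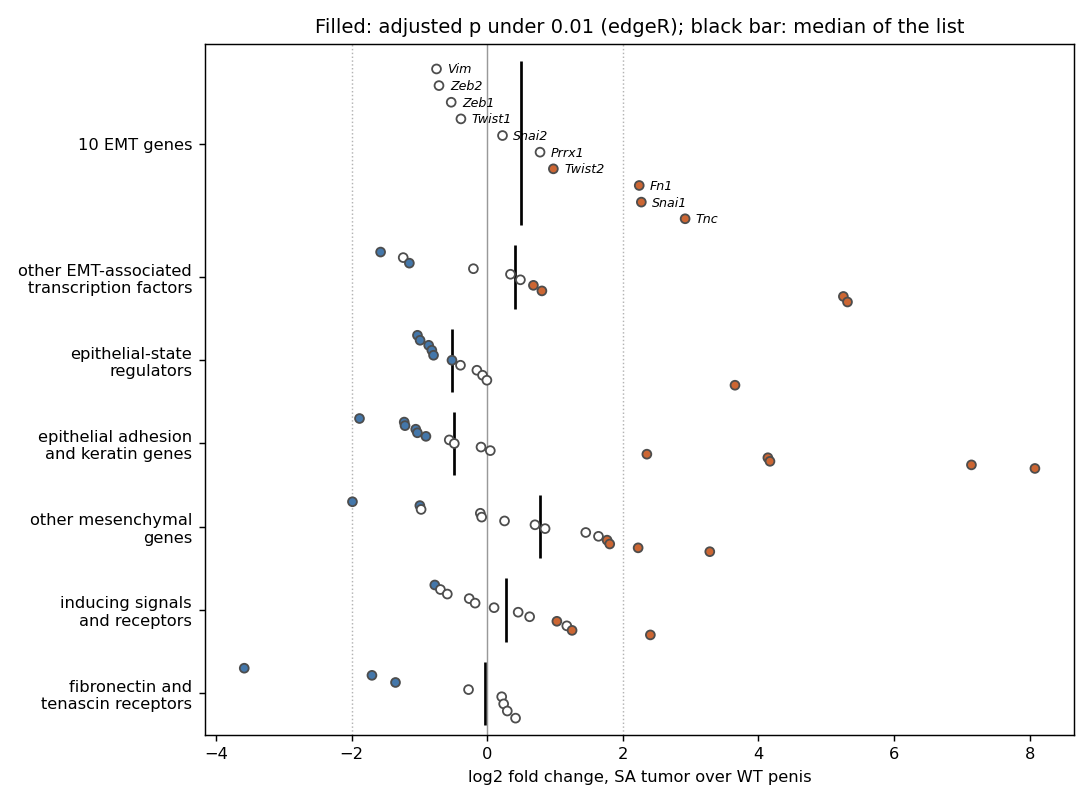
Log2 fold change of SA tumors over WT penises for the 10 genes and 6 lists of related genes, filled at an adjusted p under 0.01, with a black bar at each list's median and dotted lines at a log2 fold change of 2 in size. The 10 genes have 4 filled points, all on the side of the tumors, and a median of 0.50.

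Over 14950 genes whose mean level was 1 CPM or more, the gene whose pattern over the 6 libraries was nearest each member was chosen by the root mean square difference of centered log2 CPM. It was Trpm2 for Tnc (0.14), Trpc6 for Fn1 (0.128), Ncf4 for Snai1 (0.119), Adamts9 for Twist2 (0.0938), Arhgap4 for Prrx1 (0.0673), Tspan17 for Vim (0.0458), Gbp3 for Zeb1 (0.0427), Zfhx4 for Zeb2 (0.0949), Fstl1 for Twist1 (0.0735) and Ccdc18 for Snai2 (0.0611). Within the 10 genes the nearest pair was Zeb1 and Zeb2 (0.18), then Twist1 and Vim (0.186), and Snai1 was nearest to Fn1 (0.292). The farthest pair was Zeb2 and Tnc (1.87). These distances are a description over 6 libraries, and they take in the difference between the groups.

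The RefSeq promoter windows (GRCm38.p6, 250 bases before to 50 after a start site) covered 7 of the 10 genes in 11 windows. They were searched on both strands for CAGGTG, the E-box of Snail and Zeb factors, CTTTGAT of Tcf and Lef factors, CAGACA of Smad factors and TGAGTCA of AP-1. CAGGTG was in 1 of the 11 windows (Snai1, as CACCTG), against 20.2% of all 32851 windows. CAGACA was in 3 of the 11, both windows of Tnc, which overlap, and that of Twist1 (21% of all windows). TGAGTCA was in 1, of Zeb2 (5.2% of all windows), and CTTTGAT in 0 (3.73% of all windows). The windows of Snai1 (chr2:167537945-167538244, plus strand) and Tnc (chr4:64046887-64047186, minus strand) are shown because they carry the matches, in capitals, of the genes that rose most among those with a window. These letters are a description and no binding was measured.

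Snai1: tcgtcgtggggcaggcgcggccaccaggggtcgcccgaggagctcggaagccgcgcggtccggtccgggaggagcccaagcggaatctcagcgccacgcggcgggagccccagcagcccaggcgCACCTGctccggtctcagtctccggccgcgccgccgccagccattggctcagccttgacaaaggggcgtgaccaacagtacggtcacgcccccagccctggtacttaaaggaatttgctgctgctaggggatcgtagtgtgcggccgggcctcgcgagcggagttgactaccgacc

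Tnc: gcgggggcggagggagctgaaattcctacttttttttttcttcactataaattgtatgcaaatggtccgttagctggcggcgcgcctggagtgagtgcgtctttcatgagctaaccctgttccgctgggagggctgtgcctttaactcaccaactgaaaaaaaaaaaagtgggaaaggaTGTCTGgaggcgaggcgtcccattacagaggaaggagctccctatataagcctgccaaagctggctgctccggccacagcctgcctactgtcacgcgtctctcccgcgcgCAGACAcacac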

How the data were processed

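RNA of 3 SA tumors and 3 WT penises was sequenced (stranded, paired ends). TopHat alignment to mm10 and HTSeq counting were done by the authors, and tool versions are not given in the sources used here. Raw counts without normalization, 1 row per RefSeq transcript, were deposited by the authors. TPM values, deposited by the authors from the same counts, gave levels per length, and FPKM values, also deposited by the authors, were not used here. The labels name 3 SA mice and give no number of WT mice, so p-values measure the spread between these samples.

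Each symbol was represented by its transcript row of highest mean count. Counts were tested in R 4.3.3 with edgeR 4.0.16 (filterByExpr, TMM, quasi-likelihood F-test, Benjamini-Hochberg adjustment over 16336 genes) at an adjusted p under 0.01 and, as the second threshold, a log2 fold change of 2 or more in either direction. CPM is normalized by TMM. The distances between genes and the residual correlations used log2 CPM with a prior count of 2, and the log2 ratios to marker genes used none. Fold changes and SE are from the model. The scripts were tested on simulated data. The members and gene lists were chosen with earlier results of these data known. Named genes are the members, Smad4, Apc, those with the smallest adjusted p of each list and direction, and the nearest gene of each member. Cdh1, Cldn7, Epcam, Krt19, Cldn1, Cldn4, Itga5, Itgb1, the marker genes named, and the Fn1 segments were chosen after their values were seen. Alternatives were DESeq2 1.42.0, limma-voom (limma 3.58.1), other scalings, other filters, glmTreat, other transcript rows, each library left out, and the replicate number as a block.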

Additional observations from a re-analysis of the deposited data

How the results depend on the processing

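No member's fold change changed direction in any of 169 alternatives, and 158 kept their side of the threshold, with 4 weaker and 7 stronger. These take in glmTreat, which keeps the main fold change, so no direction could change there. Its test is against a log2 fold change of 2, and it gave weaker labels to Snai1, Fn1 and Twist2. Twist2, at 0.97, could not pass it. The members called lower (0) numbered 1 by DESeq2 and 0 to 2 with a library left out (1 without SA replicate 1, 2 without SA replicate 3). A test against a log2 fold change of 2 (glmTreat) left 1 member past both thresholds (Tnc) and, over all genes, 749 higher and 180 lower, against 1537 and 587. With library totals only, the median log2 fold change of all genes was 0.31 and the share of calls that were higher 74.4%, against 53.4%. On the list of inducing signals, receptors and Smads, that scaling gave 5 genes higher (3) and 0 lower (1). It also gave 1 fibronectin or tenascin C receptor higher (0), 1 other transcription factor lower (2) and 1 other mesenchymal gene lower (2). Genes of the inducing signal list called lower numbered 3 by DESeq2, 2 by RLE scaling and 2 without a filter on low counts. They numbered 1 to 3 with a library left out (3 without SA replicate 3). With a library left out, other transcription factors called lower ranged from 1 to 2 (1 without SA replicate 2 or any WT replicate), and other mesenchymal genes called lower from 1 (without SA replicate 2) to 3. The replicate numbers did not pair the samples: residuals of same-numbered libraries correlated at -0.135, -0.105 and 0.0238. With the replicate number as a block, 1478 genes were higher and 588 lower past both thresholds, and 2 genes of the inducing signal list were called lower. The cause of these differences was not tested. With 3 libraries per group, single-value exact tests cannot go below p = 0.10, and EDB shares in WT rest on 5 to 6 counts.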
